A study of Mus musculus with 20 samples.

Results

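The knockout time course without JMJD3 comprised 3 of the 20 samples of the series, each a list of H3K27me3 peaks called from ChIP-seq, the sequencing of DNA bound to immunoprecipitated chromatin. They were mouse embryonic fibroblasts (MEFs) labelled Jmjd3-/- before infection (day 0, hereafter KO MEF), and Jmjd3-/- cells at day 5 and day 10 after infection with OSKM and a FLAG control vector. All 3 samples carried the strain label C57Bl6J. OSKM stands for Oct4, Sox2, Klf4 and c-Myc, the retroviral factors that convert fibroblasts to induced pluripotent stem cells, and the protocol gives early-passage MEFs infected with pMXs retrovirus and cultured in embryonic stem cell medium with Vitamin C, although the sample labels call the infection lentiviral. The lists held 4113 peaks in KO MEF, 5643 at day 5 and 5376 at day 10. The corresponding wild-type (WT) lists, Jmjd3+/+ MEFs and OSKM cells with the FLAG vector at the same days, held 6954, 6428 and 5131 peaks. WT and KO cells also differ in their strain label (C57BL/6J-OG2 in WT), so that genotype and strain cannot be told apart. Each group had 1 library, so no comparison has a replicate check and no test was possible; the intervals given are 95% intervals for counting error alone.

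H3K27me3, trimethylation of lysine 27 on histone H3, is written by Polycomb repressive complex 2 and marks silent genes, above all CpG-rich promoters of developmental regulators. It is removed by the demethylases JMJD3 (encoded by Kdm6b) and UTX. During reprogramming, fibroblast genes are silenced, epithelial genes are switched on as cells leave the mesenchymal state, and pluripotency genes follow later. In the cells described here JMJD3 was absent by genotype, and no exogenous JMJD3 was supplied. The peak lists could not check the knockout, since no peak of the 3 KO lists overlapped Kdm6b.

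Every H3K27me3 peak was 1000 bp long and carried a score (column 5 of the list) whose scale is not stated. The median score was 10.7 in KO MEF, 12.5 at day 5 and 10.6 at day 10. Scores were used to rank peaks within a list, and scores of different lists are set side by side as a description only. The lists hold no read numbers, so a gain in peak number cannot be told apart from a more sensitive list. A peak was called kept when a peak of the other list overlapped it by at least 1 bp, lost when none of the later list did, and new when none of the earlier list did. The shares were repeated with all 3 KO lists cut to their 4113 best-scoring peaks.

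Sequences of 4 peaks are given as examples. Each is 300 bases of a peak at a gene of the lists described later, on the gene's strand, lying within the gene and outside all annotated exons (GRCm38, RefSeq sequence, GENCODE M21 basic transcripts). Capitals mark CpG dinucleotides, a feature that separated kept from lost peaks. Thy1, a surface protein of fibroblasts, had a new peak at day 5, Krt8 and Grhl1, an epithelial keratin and an epithelial transcription factor, lost theirs at day 5, and Foxa2, an endoderm regulator chosen after its values were seen, was called in all 3 lists.
Thy1, chr9:44043855-44044154, plus strand: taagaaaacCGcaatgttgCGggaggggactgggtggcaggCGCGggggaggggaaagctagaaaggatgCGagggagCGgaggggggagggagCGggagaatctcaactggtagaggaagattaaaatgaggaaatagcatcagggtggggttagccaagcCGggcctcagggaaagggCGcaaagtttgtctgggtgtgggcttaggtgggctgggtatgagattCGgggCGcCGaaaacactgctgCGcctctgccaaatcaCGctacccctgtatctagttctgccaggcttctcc
Krt8, chr15:102003109-102003408, minus strand: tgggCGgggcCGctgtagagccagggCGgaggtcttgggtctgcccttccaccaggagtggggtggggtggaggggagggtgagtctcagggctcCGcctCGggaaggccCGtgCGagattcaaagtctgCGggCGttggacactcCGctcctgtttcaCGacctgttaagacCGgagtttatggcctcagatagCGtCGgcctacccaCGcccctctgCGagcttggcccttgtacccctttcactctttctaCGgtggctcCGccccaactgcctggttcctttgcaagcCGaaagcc
Grhl1, chr12:24573356-24573655, plus strand: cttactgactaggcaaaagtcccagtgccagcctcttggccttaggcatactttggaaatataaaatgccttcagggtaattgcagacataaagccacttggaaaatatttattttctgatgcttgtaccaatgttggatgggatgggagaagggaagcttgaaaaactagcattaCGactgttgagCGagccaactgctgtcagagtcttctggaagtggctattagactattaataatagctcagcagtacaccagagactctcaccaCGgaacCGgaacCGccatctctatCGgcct
Foxa2, chr2:148046551-148046850, minus strand: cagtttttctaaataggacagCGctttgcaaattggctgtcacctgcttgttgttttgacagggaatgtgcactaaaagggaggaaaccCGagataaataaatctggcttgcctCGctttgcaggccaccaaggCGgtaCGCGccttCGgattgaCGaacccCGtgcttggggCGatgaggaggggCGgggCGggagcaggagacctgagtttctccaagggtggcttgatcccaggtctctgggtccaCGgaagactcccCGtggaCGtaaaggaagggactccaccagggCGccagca
These windows held 14 CpGs in Thy1, 19 in Krt8, 6 in Grhl1 and 16 in Foxa2. Over the whole 1000 bp peak the density was 4.30 CpGs per 100 bases at Thy1, 4.00 at Krt8, 1.5 at Grhl1 and 5.70 at Foxa2. Krt8 was thus a lost peak with many CpGs, unlike most lost peaks described below.

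The KO peaks turned over extensively at both steps. From MEF to day 5, 1540 of 4113 peaks were lost (37.4%, interval 36.0 to 38.9), and 3123 of 5643 day 5 peaks were new (55.3%, 54.0 to 56.6). From day 5 to day 10, 2355 of 5643 peaks were lost (41.7%, 40.5 to 43.0) and 2062 of 5376 were new (38.4%, 37.1 to 39.7). Over the whole course 1909 MEF peaks (46.4%) were lost and 3200 day 10 peaks (59.5%) were new. With lists of equal length, the first step lost 43.0% (41.5 to 44.5) and gained 44.8% (43.2 to 46.3), and the second lost 35.3% (33.8 to 36.7) and gained 35.1% (33.7 to 36.6). The order of the 2 steps by share lost therefore depended on list length: with all peaks the second step lost more, at equal length the first did.

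In WT cells at the same equal length, 34.0% of MEF peaks were lost at day 5 and 33.9% of day 5 peaks were new. KO exceeded WT by 9.02 points (6.92 to 11.1) for lost and by 10.8 points (8.74 to 12.9) for new peaks at this step. The KO MEF list was whole at this length, while the WT MEF list was cut from 6954 peaks to its best 4113. Loci called in MEF only then had median scores of 8.45 in KO and 13.4 in WT. The peaks set side by side thus differed in score range, and its part in these differences was not tested. From day 5 to day 10 the KO and WT shares differed by -0.146 points (-2.21 to 1.92) for lost and by -0.219 points (-2.28 to 1.84) for new peaks. With all peaks as deposited the KO share of lost peaks at the first step was instead 6.98 points lower than in WT (a difference of -6.98, -8.85 to -5.09). The direction of this KO and WT difference thus turned with list length. At the second step the differences with all peaks were -6.21 points (-7.98 to -4.44) for lost and 4.5 points (2.67 to 6.33) for new peaks, neither of which remained beyond counting error at equal length.

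Merging overlapping peaks gave 8692 loci (see the plot of loci by pattern of calls). The largest class, 2019 loci (23.2%), was called in all 3 lists. Loci called in a single list numbered 1771 at day 10 only (20.4%), 1723 at day 5 only (19.8%) and 1220 in MEF only (14.0%). A further 1254 loci (14.4%) appeared at day 5 and stayed, 516 (5.94%) were called in MEF and day 5, and 189 (2.17%) were called in MEF and day 10 but not between. Loci called throughout had median scores of 15.1 in MEF, 25.7 at day 5 and 17.7 at day 10, while the single-list loci had medians of 8.41 (MEF), 8.36 (day 5) and 8.11 (day 10) in their own list. With lists of equal length the order of the single-list loci turned. They then numbered 1424 in MEF only (20.5%), 1207 at day 10 only (17.4%) and 946 at day 5 only (13.6%).

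**Figure D1:**
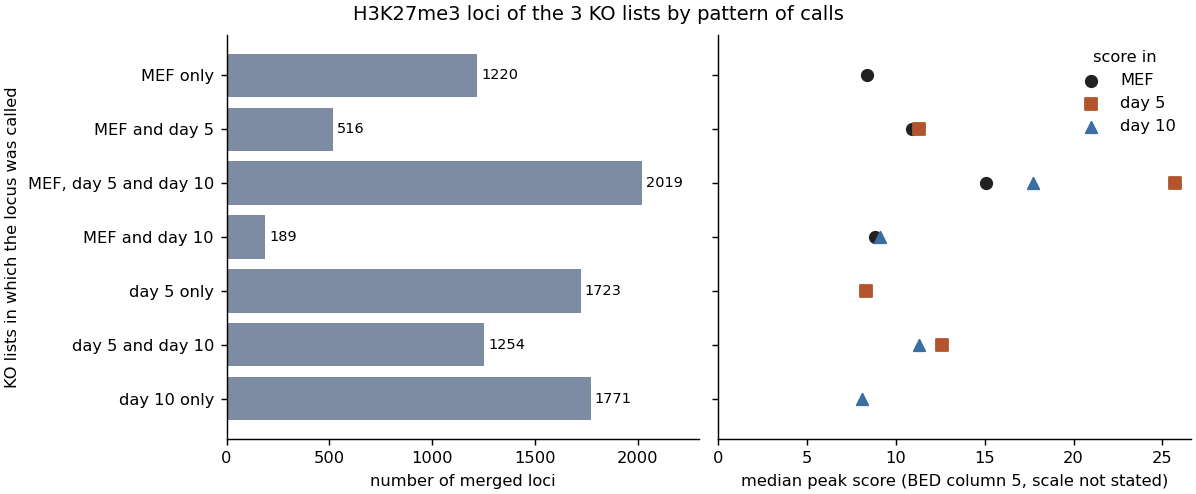
Left, number of merged H3K27me3 loci for each combination of KO lists in which the locus was called; right, median peak score of those loci in each list (scale not stated). The 2019 loci called throughout have the highest medians in each list, and loci of a single list have medians between 8.11 and 8.41.

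Loss followed the score closely. Of MEF peaks in the best quartile by score, 9.04% were lost at day 5, against 25.5%, 51.3% and 64.0% in the following quartiles. The same shares from day 5 to day 10 were 8.15%, 26.8%, 57.8% and 74.2%. New peaks were also mainly weak: 16.3% of the best day 5 quartile and 84.5% of the lowest were new, and at day 10 the shares were 5.21% and 69.9%. The 2 lower quartiles held most of the lost and most of the new peaks at both steps.

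Peaks already present in MEFs were the more durable. Of day 5 peaks that were also called in KO MEF, 1964 of 2520 (77.9%, 76.3 to 79.5) were still called at day 10. Of those that were new at day 5, 1324 of 3123 (42.4%, 40.7 to 44.1) were, a difference of 35.5 points (33.1 to 37.9). Within quartiles of the day 5 score the difference was 8.96, 10.0, 14.8 and 17.5 points from the best to the lowest, and 12.8 points on average. The same average was 10.7 points in the WT lists. Loss at day 5 was seldom undone. Of the 1540 lost MEF peaks, 250 (16.2%, 14.5 to 18.2) were called again at day 10. Most day 10 additions had no earlier call: 1842 of 5376 peaks (34.3%) overlapped neither earlier list, and 220 of the 2062 peaks new from day 5 (10.7%) had been called in MEF.

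**Figure D2:**
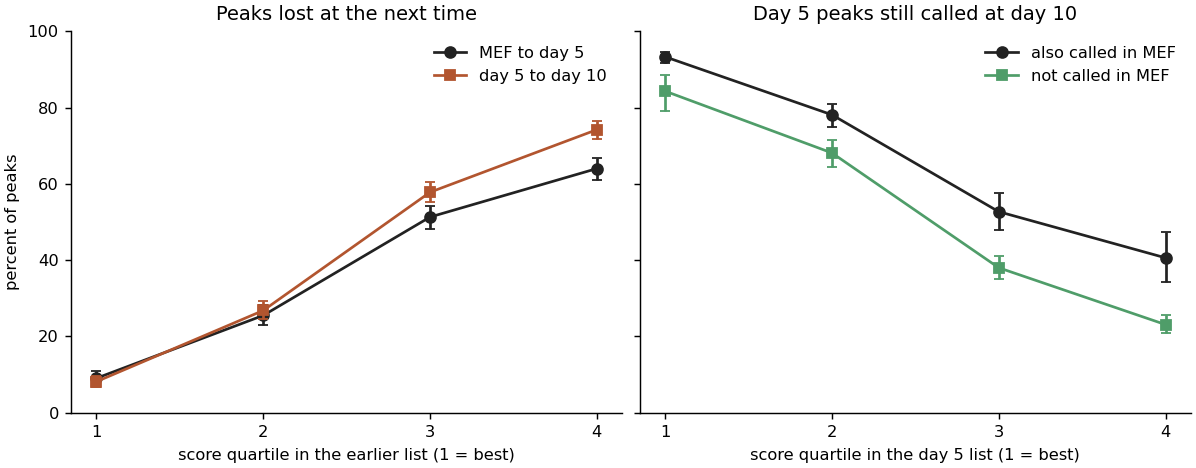
Left, percent of KO peaks lost at the next time by quartile of the peak's score in the earlier list; right, percent of KO day 5 peaks still called at day 10 by quartile of the day 5 score, for peaks called or not called in KO MEF. Error bars are 95% Wilson intervals; loss rises from under 10% to over 60%, and peaks already called in MEF lie above new peaks in every quartile.

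Kept peaks lay nearer to gene starts. Within 5 kb of a transcription start site (TSS) lay 74.6% of MEF peaks kept at day 5 and 53.8% of those lost, a difference of 20.9 points (17.8 to 23.8). At the second step the shares were 75.1% of kept and 49.9% of lost peaks, a difference of 25.2 points (22.7 to 27.7). New peaks at day 5 had 56.1%, peaks first called at day 10 had 41.4%, and peaks called in all 3 lists had 78.5%. All exceeded the 18.5% of assembled bases that lie within 5 kb of a TSS. Within score quartiles the kept and lost MEF peaks differed by 1.31 (-6.12 to 10.9), 10.9 (4.53 to 17.6), 17.2 (11.3 to 23.0) and 18.0 points (11.7 to 24.0) from the best to the lowest, so that the best-scoring peaks did not differ beyond counting error. The second step gave 1.85, 5.66, 19.7 and 19.4 points.

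CpG content also divided the classes. The median was 3.90 CpGs per 100 bases in MEF peaks kept at day 5 and 1.20 in lost ones, 2.2 in peaks new at day 5, 1.6 in peaks first called at day 10 and 4.9 in peaks called throughout. For comparison, the median was 0.6 over all 1000-base tiles of the genome and 4.30 around protein-coding gene starts. A peak was called CpG island-like when its GC content was at least 50% and its CpG count at least 0.6 of that expected from its base composition. This held for 33.3% of kept and 5.52% of lost MEF peaks, for 40.5% of kept and 11.7% of lost day 5 peaks, and for 45.5% of peaks called in all 3 lists. Within score quartiles kept MEF peaks exceeded lost ones by 28.6 (19.2 to 35.7), 21.3 (16.0 to 25.9), 18.0 (14.0 to 22.0) and 17.6 points (13.5 to 22.2), and the second step gave 19.7, 13, 12.9 and 8.74 points. CpG content thus separated kept from lost peaks at every level of the score.

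**Figure D3:**
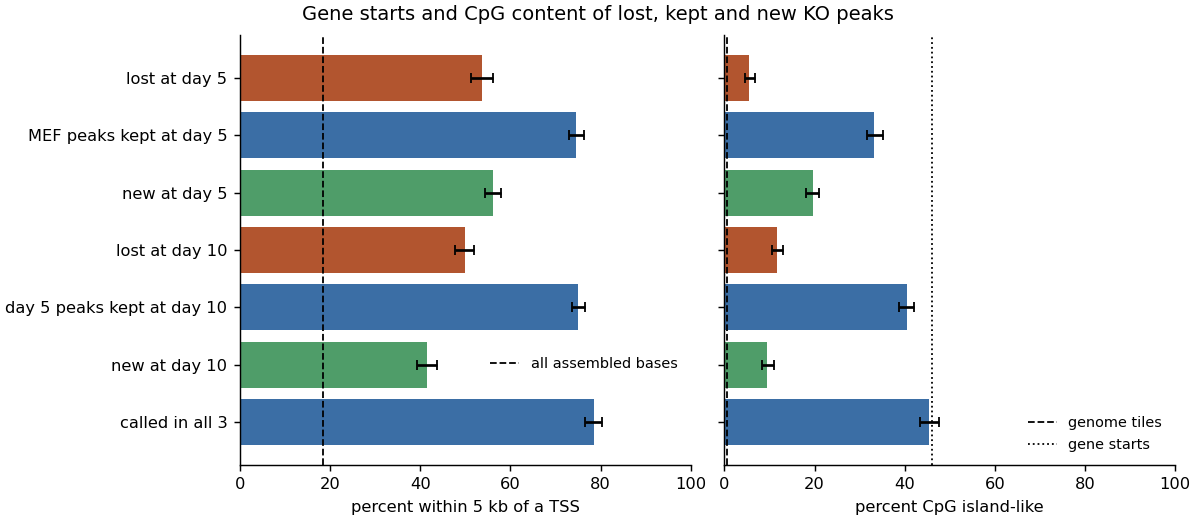
Percent of KO peaks of each class within 5 kb of a TSS (left) and percent that are CpG island-like (right), with 95% Wilson intervals. Dashed lines give all assembled bases (left) and all genome tiles (right), and the dotted line 1000-base windows at gene starts; kept peaks lie above lost and new peaks in both measures.

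Fixed motifs differed less. The AP-1 motif TGANTCA, searched on both strands, was present in 19.3% of lost and 13.4% of kept MEF peaks, against 26.6% of genome tiles. A KLF motif (GGGNGTGG) was present in 30.1% of lost and 41.0% of kept peaks (20.7% of tiles), and a SOX motif (ACAANGG) in 40.8% and 34.8% (41.8% of tiles). The classes also differed in base composition, with a median GC content of 46.2% in lost and 55.9% in kept MEF peaks. Its part in the motif shares was not tested. Peaks more than 50% masked as repeats were 5.26% of lost and 0.816% of kept MEF peaks.

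The WT H3K27me3 lists together held most of the kept peaks and fewer of the lost ones. WT MEF peaks overlapped 91.2% of KO MEF peaks kept at day 5 and 47.2% of those lost, and 96.9% and 56.3% had a peak in at least 1 of the 3 WT lists. Of peaks called in all 3 KO lists, 99.4% had one, compared with 43.6% of peaks first called at day 10. Of the 3123 peaks new at day 5 in KO, 1764 (56.5%) overlapped a WT day 5 peak and 1256 (40.2%, 38.5 to 41.9) overlapped a WT MEF peak. A new call in KO cells was therefore often a region already called in WT fibroblasts, and gain of the mark and a shorter KO MEF list cannot be told apart there. When exogenous JMJD3 was added to KO cells instead of FLAG, 2177 of the 2573 kept MEF peaks (84.6%) and 386 of the 1540 lost ones (25.1%) overlapped a peak at day 5.

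Few KO peaks coincided with binding sites measured at day 5 in other cells. KLF4 peaks of WT cells with FLAG overlapped 3.34% of kept and 2.53% of lost MEF peaks, a difference of 0.810 points (-0.296 to 1.83). At the second step they overlapped 2.77% of kept and 1.66% of lost day 5 peaks, a difference of 1.11 points (0.326 to 1.87). KLF4 peaks of cells with exogenous JMJD3 overlapped kept peaks more often by 2.22 points (0.850 to 3.51) at the first and 2.29 points (1.22 to 3.34) at the second step. Within score quartiles these differences shrank. With FLAG they averaged 0.0564 points at the first step and 0.619 at the second, and with JMJD3 0.542 and 0.676, and the quartile intervals included 0 except for the second quartile of the first step with FLAG, where lost peaks held more KLF4 peaks (a difference of -3.39 points, -6.90 to -0.913). Positions of FLAG-tagged JMJD3 in OSKM cells fell in 29 of 1540 lost (1.88%) and 20 of 2573 kept MEF peaks (0.777%), so that kept peaks held them less often by 1.11 points (a difference of -1.11, -1.96 to -0.399). Within score quartiles this difference averaged -1.56 points, with an interval that excluded 0 in the second quartile alone (-2.66, -5.53 to -0.985). At the second step the corresponding difference was 0.0626 points (-0.410 to 0.491). These counts are small, and the bound protein was exogenous and absent from the KO cells.

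For genes, the best peak within 5 kb of any TSS was taken, and 1 peak can serve neighbouring genes. Of 21951 protein-coding genes, 2203 (10.0%) were called in KO MEF, 2962 (13.5%) at day 5 and 2747 (12.5%) at day 10. At day 5, 322 of the 2203 called genes (14.6%) had lost their call and 1081 of the 19748 others (5.47%) had gained one. At day 10, 679 of 2962 (22.9%) had lost it and 464 of 18989 (2.44%) had gained one. In all, 1617 genes (7.37%) were called throughout, and 1403 of these were also called throughout in WT. The class was less often shared for genes that changed, with 125 of 322 lost genes (38.8%) also lost at day 5 in WT and 344 of 1081 new genes (31.8%) also new there. Over all 21951 genes, 3.08% were lost and 3.29% were new at day 5 in WT. Of the 322 lost genes, 209 had a call in WT MEF, without which a gene could not be lost there. In WT as a whole, 21.5% of genes called in MEF were lost at day 5, 3.84% of uncalled genes were new and 8.70% were called throughout. Of the 1081 genes new at day 5 in KO, 558 (51.6%) had a call in WT MEF and so could not be new in WT.

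Genes of the fibroblast list, which encode matrix and identity proteins expressed by MEFs, went from 1 of 30 called in KO MEF (3.33%, against 10.0% of all genes) to 4 at day 5 and 5 at day 10 (13.3% and 16.7%, against 13.5% and 12.5%). The later shares were thus near those of all genes. The new genes at day 5 were Lox, Pdgfra and Thy1, 3 of 29 (10.3%) against 5.47% of all genes. Lox, a collagen cross-linking enzyme, had no peak in KO MEF, a score of 57.9 at day 5 (rank 233 of 5643) and 38.8 at day 10 (rank 252 of 5376). Pdgfra, the receptor for platelet-derived growth factor, had none, 26.6 and 29.9. Thy1 had none, 21.4 and 17.7. Lox and Pdgfra also lacked a peak in WT MEF and had one at both later times in WT, with scores of 53.2 and 36.1 for Lox and 58.7 and 18.5 for Pdgfra, whereas Thy1 had a WT MEF peak of 10.1. Cdh2, the mesenchymal N-cadherin, was first called at day 10 with 8.54 in KO and 11 in WT. The only member called throughout was Icam1, an adhesion molecule, with scores of 27.9, 17.9 and 21.8.

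Transcription factors of the epithelial to mesenchymal transition (EMT) went from 1 of 11 called in KO MEF to 2 at day 5 and 4 at day 10 (9.09%, 18.2% and 36.4%, against 10.0%, 13.5% and 12.5% of all genes). At equal length the day 10 count was 2, as at day 5. Snai1, Twist1 and Twist2, repressors of the epithelial state, were first called at day 10 with 6.66, 8.38 and 6.62. Snai1 and Twist2 ranked 5272 and 5330 of 5376 peaks, near the end of the list, and Twist1 ranked 3713. In WT, Snai1 and Twist2 were called at day 5 (7.87 and 15.2), and none of the 3 was called at day 10. Snai3 was called at day 5 alone with 15.0, and Tcf21, a mesenchymal regulator, was called throughout with 9.60, 15.0 and 17.0.

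Epithelial genes were called for 22 of 38 members in KO MEF, 24 at day 5 and 19 at day 10 (57.9%, 63.2% and 50.0%). The shares of all genes, 10.0%, 13.5% and 12.5%, were likewise highest at day 5. Lost at day 5 were 3 of 22 (13.6%, against 14.6% of all called genes): Grhl1 with a MEF score of 13.4, Krt8 with 11.1 and Perp, a desmosome protein, with 9.14. Krt8 and Perp were likewise called in WT MEF (17.5 and 13.6) and at neither later time in WT, while Grhl1 kept a WT day 5 peak of 11.2. Lost at day 10 were 5 of 24 (20.8%, against 22.9%), namely the tight junction genes Cldn3 and Cldn4, the protease St14 and the desmosomal Pkp1 and Dsg2. Their day 5 scores were 24.3, 23.2, 23.3, 12.2 and 13, and Cldn3, St14 and Dsg2 were still called in WT at day 10 with 12.2, 8.12 and 8.13. New at day 5 were 5 of 16 (31.2%, against 5.47%), among them Cdh3 (38.5, then 33.5), Cldn4, Krt7 and Krt19. Of the genes named, Cdh3 and Cldn4 had a peak in WT MEF. No member was new at day 10.

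**Figure D4:**
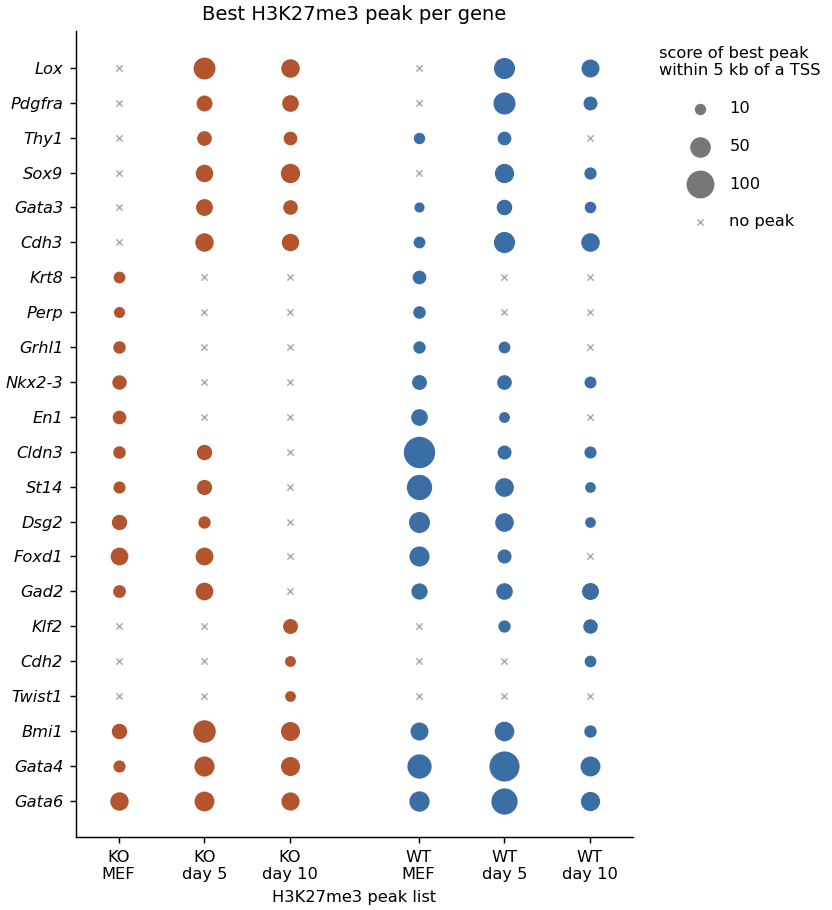
Score of the best H3K27me3 peak within 5 kb of a TSS (dot area, scale not stated) for 22 genes in the 3 KO lists (orange) and the 3 WT lists (blue); crosses mark genes with no such peak. Lox, Pdgfra and Sox9 have crosses in both MEF lists and dots at both later times, Krt8 and Perp the reverse, and the lowest 3 genes have dots in all 6 lists.

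Homeobox and paired box genes outside the Hox clusters, regulators of body pattern, were called for 71 of 82 members in KO MEF (86.6%), 75 at day 5 and 69 at day 10. Throughout called were 61 (74.4%, against 7.37% of all genes), and all 61 were called in WT MEF. Lost at day 5 were 4 of 71 (5.63%, against 14.6% of all called genes), namely Nkx2-3 (MEF score 20.3), En1 (17.3), Irx1 (8.18) and Alx1 (7.80), all of which had a WT day 5 peak. New at day 5 were 8 of 11 uncalled genes (72.7%, against 5.47%), led by Vax1 (37.5) and Irx3 (24.6). Of the 8, 7 had a peak in WT MEF, for instance Pax6 with 82.1, Tlx3 with 55.4 and Barhl1 with 51.3, and Irx3 did not. Forkhead genes lost none of their 23 calls at day 5 (against 14.6%), and at day 10 Foxd1, with 34.9 in MEF and 35.2 at day 5, and Foxf2 had none. Foxd1 also had no WT peak at day 10.

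Hox genes, which set position along the body axis and are partly active in fibroblasts, were called for 29 of 39 members in KO MEF, 31 at day 5 and 32 at day 10 (74.4%, 79.5% and 82.1%, against 10.0%, 13.5% and 12.5% of all genes). At equal length the counts were 29, 31 and 29, so that the higher count at day 10 depended on list length. New at day 5 were 6 of 10 uncalled genes (against 5.47% of all uncalled genes), namely Hoxb4, Hoxa7, Hoxa2, Hoxc12, Hoxd11 and Hoxd12, and all 6 were called in WT MEF. Among the genes lost at day 5 were Hoxa11, Hoxd8 and Hoxd9, which all had another peak within 10 kb at day 5. Hoxa3, Hoxa4, Hoxa5 and Hoxa6 were first called at day 10, with 17.5, 6.88, 13.4 and 13.4, where Hoxa5 and Hoxa6 share a peak. Peaks in the Hoxa cluster numbered 6, 10 and 9 over the course, in Hoxb 15, 20 and 18, in Hoxc 10, 18 and 12, and in Hoxd 13, 14 and 10. They covered 5.70%, 9.36% and 8.55% of the Hoxa cluster and 11.5%, 13.9% and 9.93% of the Hoxd cluster. The number of peaks was highest at day 5 in all 4 clusters, as was the number in the whole list.

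**Figure D5:**
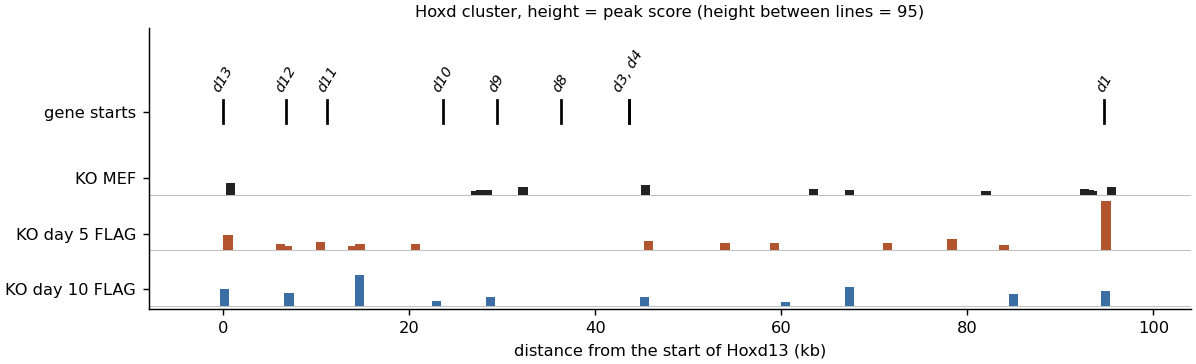
Positions of KO H3K27me3 peaks in the Hoxd cluster as distance in kb from the start of Hoxd13, with peak height proportional to score (95 between lines) and ticks at the outermost annotated start of each gene. The single highest bar is the day 5 peak at Hoxd1.

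Several other lineage regulators were newly called at day 5. Developmental Sox genes were called for 8 of 13 members in MEF, 12 at day 5 and 9 at day 10 (61.5%, 92.3% and 69.2%, against 10.0%, 13.5% and 12.5% of all genes). At equal length the day 5 count was 10, and 2 of 5 uncalled genes were new in place of 4. Sox9, a regulator of cartilage, had no KO MEF peak, 33.9 at day 5 and 43.1 at day 10, and also had no peak in WT MEF but 42.6 and 12.7 later. Sox8 (14.7 and 14.2) and Sox3 (8.13 and 9.06) were new and stayed, Sox5 was called at day 5 alone with 8.45, and Sox6 and Sox21 were lost at day 10. Of the GATA factors, Gata3 was new at day 5 with 30.9 and 21.2 at day 10, and Gata2, Gata4, Gata5 and Gata6 were called throughout (4 of 6 members, 66.7%, against 7.37% of all genes). Gata3 had a WT MEF peak of 6.6 and a KO MEF peak within 10 kb, so that its new call rested on the 5 kb distance. Within 1 kb, 1 of the 6 was called throughout. Gata4 had 12.4, 47.9 and 41.7 and Gata5 had 15.1, 40.9 and 53.0. T-box genes went from 10 of 16 to 9 at both later times, with the loss of Tbx10 (8.69 in MEF). Lineage bHLH genes, which direct neural and muscle fates, went from 22 of 31 to 26 and then 24, with Neurog2 (11.1 at day 5) among the 4 of 9 new at day 5 (44.4%, against 5.47%). Within 10 kb, 26 were already called in MEF and 1 of 5 was new. At equal length the bHLH counts were 22, 22 and 24, with 4 of 22 lost at day 5, so that the rise at day 5 depended on list length.

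Genes of secreted Wnt, Bmp, Fgf and hedgehog signals were called for 29 of 47 members in KO MEF, 38 at day 5 and 35 at day 10 (61.7%, 80.9% and 74.5%, against 10.0%, 13.5% and 12.5% of all genes, which also rose after MEF). None was lost at day 5 (against 14.6% of all called genes), and 9 of 18 were new (50.0%, against 5.47%). The new genes were Wnt5b (14.3), Wnt10a (14.2), Wnt11 (13), Wnt8b (11.8), Wnt2 (9.58), Wnt16 (9.46), Fgf2 (8.01), Fgf10 (7.20) and Wnt5a (6.86). At equal length the calls of Fgf2, Fgf10 and Wnt5a ended, and 6 of 18 were new. Wnt2, Wnt5a, Wnt5b, Fgf2 and Fgf10 had no peak in WT MEF and the other 4 did. Wnt8b, Fgf2 and Wnt5a were no longer called at day 10, nor was Dhh, a hedgehog ligand with 22.0 in MEF and 12.6 at day 5.

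Pluripotency genes were called for 16 of 36 members in KO MEF, 19 at day 5 and 16 at day 10 (44.4%, 52.8% and 44.4%). The share of all genes was likewise highest at day 5 (10.0%, 13.5% and 12.5%). Pou5f1 (Oct4) was called at day 5 alone with 6.84, close to the lowest score of that list. Tdh, a threonine metabolism enzyme of embryonic stem cells, Dnmt3l and Zic2 were also called at day 5 alone, with 11.9, 12.4 and 10.6. All 4 of these genes were called in WT MEF, and 3 of them at day 5 in WT. Tdgf1, a co-receptor for Nodal, was lost at day 10 after 10.3 and 13.5, and so was its WT peak. Lefty2, a Nodal antagonist, was called in MEF (10.1) and at day 10 (7.90) but not at day 5. Klf2 was first called at day 10 with 22.2, and its WT peaks were 12.9 at day 5 and 20.8 at day 10. The 4 OSKM factors were delivered by virus, and reads of the proviruses cannot be told apart from those of the endogenous exons: Sox2 had a peak of 9.29 in MEF, 44.4 at day 5 and 28.0 at day 10, and Klf4 of 7.41, 17.5 and 66.5.

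Polycomb and H3K27 demethylase genes were called for 5 of 28 members in MEF and 7 at both later times (17.9%, 25% and 25%, against 10.0%, 13.5% and 12.5% of all genes, which also rose after MEF). Bmi1 (24.5, 61.8 and 41.6), a subunit of Polycomb repressive complex 1, was called throughout. Pcgf5 was lost at day 5 (6.74 in MEF), and Phc2 (19.3), Pcgf3 (9.70) and Phf19 (6.77) were new. All 3 new genes were called in WT MEF, and 1 of them at day 5 in WT. At equal length 6 members were called at both later times. Of the cell cycle inhibitors, Cdkn1c was called throughout (19.7, 49.7 and 28.3). Cdkn2a, the Ink4a/Arf locus, had no KO MEF peak and low scores of 7.36 at day 5 and 7.59 at day 10, whereas WT had 15.0 in MEF, 12.2 at day 5 and none at day 10. The KO calls of Cdkn2a ended at equal length. Markers of other cells that a MEF culture could hold were also followed. Endothelial genes went from 6 to 7 and 7 of 12, blood cell genes stayed at 3 of 12, and neuronal and glial genes went from 6 to 5 and 4 of 12, while the shares of all genes were 10.0%, 13.5% and 12.5%. At equal length the blood cell count at day 10 was 2.

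Many list counts depended on the distance to a TSS. With peaks within 1 kb, Hox genes were called for 10, 25 and 24 of 39 members in MEF, at day 5 and at day 10, so that their nearly level course became a rise at day 5. The share of all genes also rose at this distance, from 5.36% in MEF to 9.05% at day 5 and 8.42% at day 10. Other homeobox and paired box genes then counted 26, 39 and 36, forkhead genes 6, 9 and 10, lineage bHLH genes 11, 17 and 14, and the secreted signals 19, 31 and 23. Pluripotency genes stood at 11 in each list. Polycomb and demethylase genes counted 1, 0 and 1 and cell cycle inhibitors 0 in each list, so that the calls of Bmi1 throughout and of Cdkn1c rested on peaks centred farther than 1 kb from a TSS.

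In the classes that follow, the best-scoring peaks lay mostly near genes outside these lists, with Nkx2-5 and Foxb1 as the list members among those named. A further class, called in MEF and at day 10 but not at day 5, was led by peaks near Dlx3 (37.9) and Hoxd3 (32.4). Lost at day 5 were peaks near Selenov (score 42.5), Hes3 (37.3), Scrt1 (35.6), Tubb2b (34.8) and Rims2 (34.7), of which Hes3 and Scrt1 encode neural transcriptional repressors. New at day 5, after a peak on chromosome Y near Gm21748 at the highest score of 200, were peaks near Cdh22 (82.8), Vgf (72.3), Cacna1g (68.7) and Cdk5r2 (67.4). The chromosome Y peak was called in no other H3K27me3 list. The Cacna1g and Cdk5r2 regions were already called in WT MEF, those near Cdh22 and Vgf were not. Vgf encodes a neuropeptide precursor, and its gene was new at day 5 and kept at day 10 in both genotypes. Lost at day 10, besides the chromosome Y peak, were peaks near Tmem163 (78.4), Ntng2 (67.5), Sp9 (62.1) and Car11 (60.7). The Tmem163, Ntng2 and Sp9 regions were called in every other H3K27me3 list, also in WT at day 10, so that only the KO day 10 list lacked them. First called at day 10 were peaks near Nkx2-5, the cardiac homeobox gene (39.7), Slit3 (33.6), Vash2 (33.2), Sim2 (32.6) and Foxb1 (28.3). As genes, Nkx2-5 and Foxb1 were not new, since both already had another peak within 5 kb of a TSS at day 5. Their regions were also called in WT MEF, unlike those of Slit3, Vash2 and Sim2. Of the 5 best peaks called throughout, those near Gm10800 and Rpusd4 were 85.8% and 54.1% repeat-masked, and Egr4, an immediate early gene, was the fifth with 155.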

How the data were processed

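H3K27me3 peak lists of 10 libraries were used, with the 3 KO lists as the subject, beside 2 KLF4 and 2 JMJD3 lists. The 6 samples without a peak list were not used here. The authors aligned reads to mm10 with bowtie2 (the submitters' notes give version 2.2.0) and called H3K27me3 peaks per library with DFilter. Deposited lists give 1000 bp intervals with a score on a scale that was not stated. Drosophila chromatin served as a spike-in, and whether it entered peak calling was not stated. Read depth per sample is not in the lists, and read numbers from the supplement of the study were not used here.

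Overlap was at least 1 bp. TSSs came from GENCODE M21, sequence from GRCm38.p6 (the build of mm10), which matched all listed genes by symbol. Shares carry 95% Wilson and differences Newcombe intervals, and neighbouring peaks are not independent. Python 3.11.15, numpy 2.4.6 and bedtools 2.31.1 were used. Overlap counts equalled those of bedtools in 6 of 6 comparisons, and all 2056 shared peaks of 4113 simulated ones were recovered.

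The members, the 17 gene lists and the alternatives were chosen with earlier results of these data known. By rule up to 6 genes per list were named, in the order lost at day 5, new at day 5, lost at day 10, new at day 10 and called throughout, each by score, plus the nearest genes of the 5 best peaks per class. Other genes, such as Foxa2, Cldn3, Dsg2, Klf2, Pax6 and Hoxa3, were named after their values were seen. Some genes that the rule names are not reported here.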

Additional observations from a re-analysis of the deposited data

Results flagged for a closer look

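The number of peaks moved in opposite directions in KO and WT cells. From MEF to day 5 the number was multiplied by 1.37 in KO and by 0.924 in WT, and from MEF to day 10 by 1.31 in KO and by 0.738 in WT. With 1 library per group the difference between genotypes was not tested.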

How the results depend on the processing

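Shares below are given as lost and then new, for MEF to day 5, day 5 to day 10 and MEF to day 10. When at least 50% of a peak had to overlap they were 50.6% and 64.4%, 50.9% and 48.2%, and 59.5% and 69.1%. When a gap of up to 1 kb was allowed they were 31.0% and 51.3%, 39.1% and 35.4%, and 40.5% and 55.5%. With the 3 KO lists at equal length they were 43.0% and 44.8%, 35.3% and 35.1%, and 50.5% and 51.7%. With the better-scoring 50% of each list they were 29.5% and 48.6%, 33.9% and 30.7%, and 39.8% and 54.0%. With 10 lists at equal length they were 40.4% and 40.6%, 32.6% and 32.6%, and 47.8% and 47.9%. With a score of at least 20, chosen after seeing the data, they were 25.2% and 65.8%, 52.7% and 25.2%, and 47.4% and 62.0%. On autosomes, and without peaks over 50% repeat-masked (chosen after seeing the data), all 6 shares stayed within their counting intervals. The KO minus WT differences at equal length were 9.02 points for lost and 10.8 for new peaks at the first step, -0.146 and -0.219 at the second, and 4.74 and 6.08 from MEF to day 10, against -6.98 and 15.3, -6.21 and 4.5, and -12.4 and 15.5 with all peaks. Lost peaks at the first step and over the whole course turned in direction, and the second step no longer differed beyond counting error. The cause was not tested.

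Within 1 kb of a TSS lay 15.6% of peaks lost at day 5, 46.2% of kept, 34.3% of new at day 5, 25.1% of lost at day 10 and 19.6% of new at day 10. Within 10 kb the shares were 70.6%, 84.7%, 67.0%, 63.7% and 55.7%. At equal length 65.4% of peaks new at day 5, 60.2% of those lost at day 10 and 47.0% of those new at day 10 lay within 5 kb. Kept peaks exceeded lost ones under each of these settings. At equal length WT MEF and WT day 5 peaks overlapped 51.1% and 30.5% of peaks lost at day 5, 92.5% and 91.4% of kept ones and 49.3% and 72.1% of new ones, and 28.0% of new and 35.7% of kept peaks were CpG island-like. Of 51 gene list counts, 29 moved beyond their counting interval with a TSS distance of 1 kb, 1 with 10 kb and 3 at equal length. Read depth was not used here, which limits every count. No paired analysis was possible because each group has 1 library and no result comes from a test.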
